A study of Mus musculus with 24 samples.

Results

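The oxidative phosphorylation subunit genes were the rows of the count tables whose symbols belong to the families of the 5 respiratory complexes. These were the Ndufa, Ndufb, Ndufc, Ndufs and Ndufv genes (complex I), Sdha to Sdhd (complex II), the Uqcr genes and Cyc1 (complex III), the families of Cox4 to Cox8 (complex IV), the Atp5 genes (complex V, the ATP synthase) and the mitochondrial-encoded mt-Nd, mt-Cytb, mt-Co and mt-Atp genes. The choice used symbols alone and no measured value. It gave 102 of the 55376 genes in the tables, of which 89 are nuclear (40 of complex I, 4 of complex II, 9 of complex III, 19 of complex IV and 17 of complex V) and 13 are mitochondrial-encoded. Ndufa4 was counted with complex I by its symbol, although its protein is known as a part of complex IV. Ndufab1 and Ndufb1-ps fell outside the rule.

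The study asked how raised levels of tristetraprolin (TTP, gene Zfp36), a protein that binds AU-rich elements and promotes the decay of mRNAs that carry them, affect blood stem cells. TTPΔARE mice are homozygous for a germline deletion of the AU-rich element in the Zfp36 mRNA itself, so the allele is present in every cell of the animal, and the WT controls were littermates. All mice were untreated males. Bulk mRNA was sequenced from cells sorted from bone marrow. Hematopoietic stem cells (HSCs) came from young WT (Y-WT, n = 4), young TTPΔARE (Y-TTPΔARE, n = 4), middle-aged WT (M-WT, n = 5) and middle-aged TTPΔARE mice (M-TTPΔARE, n = 3). Multipotent progenitor 3 (MPP3) cells, a myeloid-biased progenitor, came from young WT (n = 4) and young TTPΔARE mice (n = 4). HSCs were sorted as lineage-negative, Sca1+ cKit+ (LSK) cells without CD34 and Flk2 and with CD150. The sample titles number the middle-aged HSC libraries 1 to 8, the young HSC libraries 11 to 18 and the MPP3 libraries 21 to 28, so that age and cell type cannot be told apart from anything else that went with these runs of numbers. The labels do not say whether replicates were separate animals, and p-values therefore measure the spread between these samples.

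Oxidative phosphorylation makes ATP in the inner mitochondrial membrane. Complexes I and II pass electrons from NADH and succinate to ubiquinone, complex III passes them to cytochrome c and complex IV to oxygen, while complexes I, III and IV pump protons and the ATP synthase uses the resulting gradient. Complex II is built from nuclear genes alone, whereas the other complexes combine nuclear subunits, made in the cytosol and imported, with subunits transcribed from the mitochondrial genome. Long-term HSCs are known as a quiescent population with low respiration, and progenitors such as MPP3 as more active cells.

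The 24 libraries held between 24261371 and 39934554 counts (median 34817620.5). Levels are given as CPM, the counts of a gene relative to the size of its library, scaled by the TMM factors of the 24 libraries. Zfp36 was at 32.5 to 69.2 CPM in Y-WT HSCs and 85.4 to 105.4 CPM in Y-TTPΔARE HSCs, at 41.6 to 60.4 CPM in M-WT and 95 to 105.6 CPM in M-TTPΔARE HSCs, and at 20.5 to 38.4 CPM in WT and 81.7 to 124.5 CPM in TTPΔARE MPP3. In each pair every TTPΔARE library lay above every WT library. By edgeR the log2 fold change of Zfp36 was 0.96 ± 0.21 (SE) in young HSCs, which did not pass the test (adjusted p = 0.238), while it passed in middle-aged HSCs (adjusted p = 0.002) and MPP3 (adjusted p = 6.46e-04). The summed level of 8 HSC markers, among them Slamf1, was 1744 to 2892 CPM in the HSC libraries and 884 to 1311 CPM in the MPP3 libraries. That of 8 MPP3 markers, among them Mpo, was 293 to 530 CPM in HSCs and 1923 to 4045 CPM in MPP3, and no marker of either list was at 0 in any group. The summed level of 5 macrophage markers was 53.6 to 129.8 CPM in WT MPP3 and 220.1 to 423.2 CPM in TTPΔARE MPP3. Replicate 4 of Y-TTPΔARE MPP3 stood apart in the levels of the members, and leaving out replicate 1 of Y-WT HSC raised the number of WT calls most. The comparisons of MPP3 with HSC are given with and without these libraries for most members named below. Leaving out either raised the number of members called, while leaving out several other libraries lowered it. In Y-WT HSCs replicate 3 stood apart as well, since nuclear members took 1.02% of its counts and 1.13% to 1.29% in the others. In bulk samples, fewer cells of a type and less RNA per cell cannot be told apart.

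The sequences of the mitochondrial-encoded members are shown because several of them exist a second time in the nuclear genome, which bears on how their counts can be read. GENCODE M21 (GRCm38) places the 13 members on chromosome M, and annotates pseudogenes of them elsewhere, the remains of mitochondrial DNA inserted into the nucleus. mt-Co2, mt-Atp6, mt-Co3, mt-Nd3 and mt-Nd4l each had a copy on chromosome 1 that matched over 99% to 99.9% of the gene at 99.7% to 100% identity, and mt-Atp8 lies between mt-Co2 and mt-Atp6 in the same stretch (chrM:7013-10173). The copies are Gm28661 (chr1:24614885-24615565) of mt-Co2, which encodes a core subunit of complex IV, Gm10925 (chr1:24613974-24614651) of mt-Atp6, the proton channel subunit of the ATP synthase, Gm28437 (chr1:24613189-24613971) of mt-Co3, Gm28438 (chr1:24612775-24613119) of mt-Nd3 and Gm10222 (chr1:24612407-24612700) of mt-Nd4l. The first 90 bases of mt-Co2 and the same stretch of its copy had no mismatch. For mt-Cytb, the mitochondrial subunit of complex III, and mt-Nd6, a subunit of complex I, the closest copies lie on chromosome 4 (Gm11410, chr4:80003989-80005131, and Gm11408, chr4:80003396-80003914) at 92.9% and 93.6% identity, and a 90-base window at the start of the gene (bases 2 to 91 of mt-Cytb and 1 to 90 of mt-Nd6) held 5 and 3 mismatches. Capitals mark the bases that differ within each pair, and all are read from the M21 transcripts, 5′ to 3′ on the strand of the gene.
mt-Co2: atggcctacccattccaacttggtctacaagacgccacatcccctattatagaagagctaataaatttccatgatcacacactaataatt
Gm28661: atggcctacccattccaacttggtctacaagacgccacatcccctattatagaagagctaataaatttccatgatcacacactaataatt
mt-Cytb: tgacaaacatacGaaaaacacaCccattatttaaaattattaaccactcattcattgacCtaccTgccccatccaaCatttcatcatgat
Gm11410: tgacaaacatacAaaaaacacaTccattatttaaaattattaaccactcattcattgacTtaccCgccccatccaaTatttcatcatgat
mt-Nd6: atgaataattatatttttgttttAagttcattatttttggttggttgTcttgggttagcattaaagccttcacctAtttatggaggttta
Gm11408: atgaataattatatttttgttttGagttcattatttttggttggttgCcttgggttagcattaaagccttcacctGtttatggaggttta

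The 6 members of that stretch were nearly without counts. Their summed level was 8.14 to 8.86 CPM in Y-WT HSCs, 7.22 to 12.2 CPM in Y-TTPΔARE HSCs, 0.737 to 1.34 CPM in M-WT HSCs, 0.849 to 1.18 CPM in M-TTPΔARE HSCs, 1.79 to 2.78 CPM in WT MPP3 and 1.70 to 3.85 CPM in TTPΔARE MPP3. The other 7 members together stood at 4720 to 13733 CPM per library. The 5 annotated copies were themselves at a summed 21.3 to 30.7 CPM in young HSCs, 9.38 to 12.0 CPM in middle-aged HSCs and 10.8 to 30.6 CPM in MPP3. As an example, the mt-Co2 level was 2.10, 1.84, 1.63 and 1.65 CPM in the Y-WT HSC replicates and 0.237, 0.101, 0.158, 0.337 and 0.191 CPM in the M-WT HSC replicates, and no young value reached down to the middle-aged ones. How reads that match several places were counted is not given in the sources used here, and the part this has in the low counts was not tested. mt-Nd3 and mt-Nd4l did not pass the filter on low counts in the fit of the 24 libraries. Of the other 7, mt-Nd4 shares its first 876 of 1378 bases with Gm28439 (chr1:24611535-24612410) at 100% identity and mt-Co1 its last 483 of 1545 bases with Gm29216 (chr1:24615706-24616197) at 99.8%, so that these levels may be partial. mt-Nd6 is read from the strand opposite to the other 12 members and overlaps mt-Nd5 by position, and the strand setting of the counting is not stated, so that its counts cannot be told apart from antisense RNA of its neighbour there. Levels of the mitochondrial-encoded set are therefore given for the 7 members outside the stretch.

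**Figure D1:**
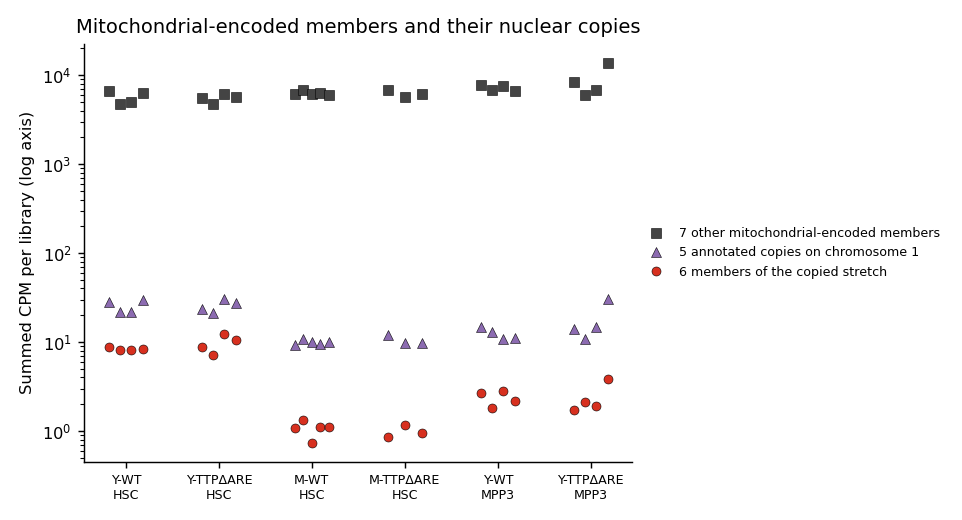
Summed CPM per library on a log axis for the 7 mitochondrial-encoded members outside the stretch, the 6 members inside it and the 5 annotated copies on chromosome 1, in the 6 groups (1 point per library). The 7 members sit between 4720 and 13733 CPM in each library, while the 6 members of the stretch reach at most 12.2 CPM and are lower in middle-aged than in young HSCs.

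Nuclear members took 1.18 ± 0.130% (SD, n = 4) of all counts in Y-WT HSCs, 1.23 ± 0.10% (n = 4) in Y-TTPΔARE HSCs, 1.11 ± 0.0752% (n = 5) in M-WT HSCs, 1.10 ± 0.0483% (n = 3) in M-TTPΔARE HSCs, 1.32 ± 0.145% (n = 4) in WT MPP3 and 1.56 ± 0.397% (n = 4) in TTPΔARE MPP3. In WT MPP3 the share was 1.54% in replicate 2 and 1.24% to 1.25% in the others. In TTPΔARE MPP3 it was 1.42%, 1.24%, 1.43% and 2.14% in replicates 1 to 4, so that the mean of this group lies above all of its first 3 libraries. The HSC groups ranged from 1.02% to 1.34% over 16 libraries, and neighbouring groups overlapped. The 7 mitochondrial-encoded members took 0.617 ± 0.0848%, 0.577 ± 0.0612%, 0.653 ± 0.0341%, 0.631 ± 0.0672%, 0.664 ± 0.0257% and 0.744 ± 0.187% in the same order of groups, with 1.00% in replicate 4 of TTPΔARE MPP3.

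The ratio of the mitochondrial-encoded to the nuclear share compares both sets within a library and is independent of library scaling. It was 0.527 ± 0.0809 (SD) in Y-WT HSCs, 0.470 ± 0.0211 in Y-TTPΔARE HSCs, 0.593 ± 0.0492 in M-WT HSCs, 0.571 ± 0.0452 in M-TTPΔARE HSCs, 0.508 ± 0.0640 in WT MPP3 and 0.478 ± 0.0317 in TTPΔARE MPP3. The 3 M-TTPΔARE HSC libraries (0.542 to 0.623) lay above all Y-TTPΔARE HSC libraries (0.444 to 0.493). In WT HSCs the ages overlapped, with 0.421 to 0.618 in young and 0.515 to 0.640 in middle-aged libraries. Between HSC and MPP3, and between the genotypes of each cell type and age, the ranges overlapped as well.

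**Figure D2:**
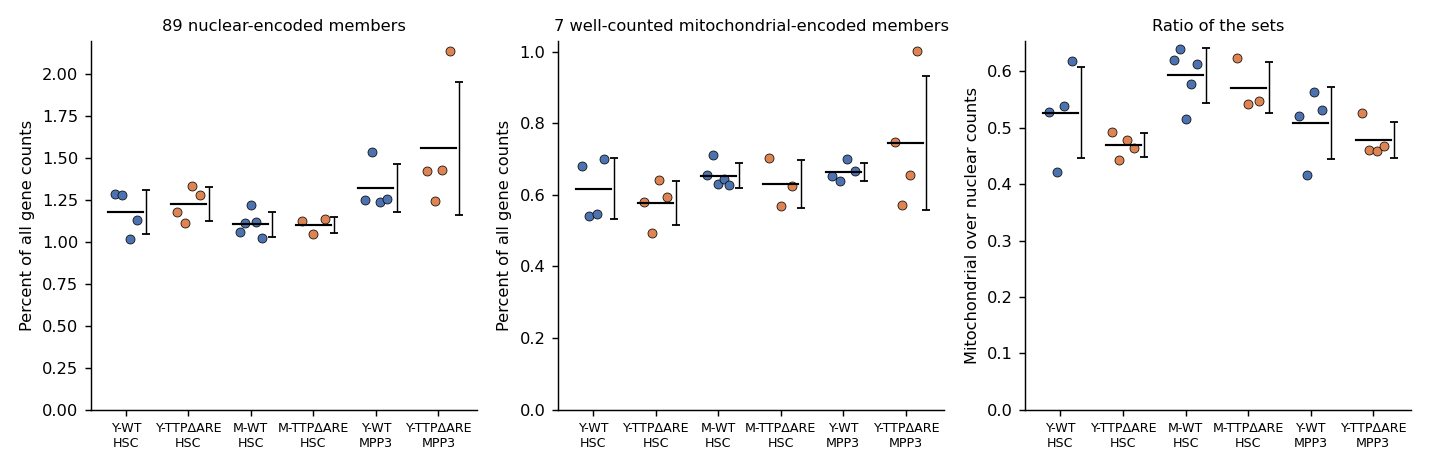
Share of all counts in nuclear members and in the 7 mitochondrial-encoded members outside the stretch, in percent, and the ratio of the 2 shares, per library in the 6 groups (points, libraries; bars, mean and SD). Replicate 4 of Y-TTPΔARE MPP3 is the highest point for both shares (2.14% and 1.00%) but not for the ratio, which runs from 0.416 to 0.640 over all 24 libraries.

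Levels between genes are compared as CPM per kilobase of annotated exon, as means over the 24 libraries. The length joins all annotated exons of a gene and can exceed that of its mRNA, so that orders on this scale may rest on the annotation. The most abundant members by this scale were mt-Cytb (1784), mt-Co1 (1397), which encodes the catalytic subunit of complex IV, and mt-Nd1 (942), followed by the nuclear Cox8a (386). The other mitochondrial-encoded members outside the stretch, mt-Nd6 (356), mt-Nd2 (313), mt-Nd4 (310.5) and mt-Nd5 (305), were at levels like those of the highest nuclear members. In each complex the highest nuclear member by this mean was Ndufa4 (205) for complex I, Sdhd (151), a membrane anchor, for complex II, Uqcrb (229) for complex III, Cox8a for complex IV and Atp5a1 (317), the α subunit of the catalytic head, for complex V. Atp5b, the catalytic β subunit, was close to Atp5a1 (304), and before scaling by length it was above it (1289 and 994 CPM). Sdhd, Uqcrb and Cox8a were the highest of their complexes in each of the 6 groups. Ndufa4 was so in MPP3 alone, with Ndufa2 or Ndufa1 above it in the HSC groups, and Atp5a1 in HSCs alone, since Atp5b was above it in WT MPP3 (363.2 and 361.3) and TTPΔARE MPP3 (410.9 and 380.3). Without scaling by length, Atp5a1 was at 879 ± 127 CPM in Y-WT HSCs (SD, n = 4).

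Where a subunit has paralogues, the ubiquitous form was the abundant one in these cells. On the per-kilobase scale Cox4i1 was at 207 and Cox4i2, an isoform known from lung, at 2.25. Cox6a1 was at 243 and the heart and muscle form Cox6a2 at 0.831. Cox7a2 was at 132 and the heart and muscle form Cox7a1 at 1.25, while Cox7a2l, which takes part in joining complexes III and IV, was at 71.5. Cox7b was at 109 and Cox7b2 at 0.958, and Cox8c was at 0.405. Cox8b and Ndufa11b did not pass the filter on low counts. Ndufa4l2, a hypoxia-induced relative of Ndufa4, was at 0.206, and Ndufc2, a membrane subunit of complex I, at 146. Among the tissue-restricted forms the highest was Cox6b2, known as a testis form, at 25.3 beside 306 for Cox6b1. The 3 genes of the c subunit, the rotor ring of the ATP synthase, were all present, with Atp5g3 at 121, Atp5g2 at 38.1 and Atp5g1 at 29.8. The order of the last 2 depended on the length, since before scaling Atp5g3 was at 265, Atp5g1 at 147 and Atp5g2 at 63.8 CPM.

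The comparison of MPP3 with HSC in young mice asks how the members differ between the stem cell and the myeloid-biased progenitor. At least 1 nuclear subunit of each of the 5 complexes was called higher in MPP3, both in WT and in TTPΔARE cells, which share no library. A member was called at an adjusted p below 0.05 (edgeR's quasi-likelihood test, Benjamini-Hochberg over all genes tested), a fold change above 1.2 and an average log2 CPM above 1.5. In WT, 16 of 85 nuclear members tested were higher and none lower, and none of the 11 mitochondrial-encoded members tested was called. In TTPΔARE, 13 of 85 nuclear and 3 of 11 mitochondrial-encoded members were higher and none lower. For complexes I to V, 7 of 37, 1 of 4, 3 of 9, 2 of 18 and 3 of 17 nuclear members were higher in WT. In TTPΔARE these were 5 of 37, 1 of 4, 2 of 9, 1 of 18 and 4 of 17. Among all genes 14.5% were called higher and 7.69% lower in WT, and 9.07% and 7.22% in TTPΔARE. The shares higher in complex IV, 11.1% in WT and 5.56% in TTPΔARE, lay below those of all genes. Among genes above the log2 CPM limit, 24.7% of 13433 genes and 18.8% of 85 members were higher in WT, and 14.6% of 13358 genes and 18.8% of 85 members in TTPΔARE. The share of members called higher at the adjusted p was thus below that of all such genes in WT and above it in TTPΔARE. At an unadjusted p below 0.05, edgeR gave 44 of 96 members (45.8%) higher in WT, beside 20.1% of all genes tested, and 64 of 96 (66.7%) in TTPΔARE, beside 15.8%. Above the limit these shares were 51.8% of members and 33.3% of genes in WT, and 74.1% and 23.2% in TTPΔARE. At that unadjusted limit edgeR gave 1 nuclear and 4 mitochondrial-encoded members lower in each genotype, and DESeq2 called none lower. This was 5.21% of members, beside 15.7% of all genes tested in WT and 13.9% in TTPΔARE. Every MPP3 library lay above every HSC library for 29 of the 78 nuclear members above the limit (37.2%) in WT and for 39 of 78 (50%) in TTPΔARE. Among all genes above the limit these shares were 33% and 25%, and among all genes tested 20.2% and 16.9%.

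Markers of other cell types moved with the cell type in the same libraries. The summed level of 5 endothelial markers was 232.1 to 400.2 CPM in Y-WT HSCs and 119.2 to 160.8 CPM in WT MPP3, and 255.5 to 287 CPM and 106.5 to 149.6 CPM in TTPΔARE. That of 5 erythroid markers was 18.1 to 30.4 CPM in Y-WT HSCs and 4.45 to 9.66 CPM in WT MPP3, and overlapped in TTPΔARE. That of 5 macrophage markers was 88 to 128.5 CPM in Y-TTPΔARE HSCs and 220.1 to 423.2 CPM in TTPΔARE MPP3, and overlapped in WT. B cell and T cell markers overlapped in both genotypes, no marker of these lists was at 0 in any group, and the part of these markers in the result was not tested.

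The median log2 fold change of the nuclear members tested was 0.325 in WT and 0.50 in TTPΔARE, beside 0.122 and 0.0432 over all genes above the log2 CPM limit. It was positive for 78 of 85 nuclear members in WT and for 82 of 85 in TTPΔARE. Without replicate 4 of Y-TTPΔARE MPP3, the TTPΔARE median of the 78 nuclear members above the limit fell from 0.505 to 0.271, and 17 nuclear and 3 mitochondrial-encoded members were called. By complex, the WT medians were 0.303, 0.350, 0.363, 0.357 and 0.364 for complexes I to V. With all TTPΔARE libraries, those of TTPΔARE were 0.442, 0.395, 0.488, 0.621 and 0.620. The deviations of same-numbered TTPΔARE libraries were correlated (r = 0.214 to 0.298), but the labels state no shared origin for them. With the number as a block, 23 nuclear and 4 mitochondrial-encoded members were called higher. The shares of all genes called with the block and without replicate 4 are not given here. These counts therefore do not set the members apart from other genes.

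Among complex I members, Ndufa4 had the largest change in WT. It was at 235, 222, 168 and 175 CPM in Y-WT HSC replicates 1 to 4 and at 374, 431, 376 and 348 CPM in WT MPP3. In TTPΔARE it was at 196, 183, 238 and 238 CPM in HSCs and at 413, 319, 426 and 1050 CPM in MPP3. Every MPP3 library lay above every HSC library, and replicate 4 of TTPΔARE MPP3 was more than 2-fold above its group. The log2 fold change was 0.89 ± 0.15 (SE, adjusted p = 0.00213) in WT and 1.22 ± 0.27 (adjusted p = 0.0114) in TTPΔARE by edgeR, and 0.83 (adjusted p = 0.00118) in TTPΔARE without replicate 4 of MPP3. Without replicate 1 of Y-TTPΔARE HSC its adjusted p was 0.0647.

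In the catalytic part of complex I, Ndufv1, which binds NADH and FMN, rose in both genotypes, by 0.47 ± 0.12 (SE, adjusted p = 0.0163) in WT and 0.38 ± 0.11 (adjusted p = 0.0393) in TTPΔARE. Ndufs1, the largest iron-sulfur subunit, was at 109 to 137 CPM in Y-WT HSCs and 148 to 166 CPM in WT MPP3, and its groups did not overlap, with a log2 fold change of 0.34 (adjusted p = 0.0515) in WT and 0.17 (adjusted p = 0.403) in TTPΔARE. The accessory subunits Ndufa1 (0.49 and 0.74 in WT and TTPΔARE) and Ndufb7 (0.52 and 0.82) were called in both genotypes, and Ndufa9 and Ndufs6 in WT. Ndufs8, a core iron-sulfur subunit, was called in TTPΔARE (0.58, adjusted p = 0.0384). Ndufc2 was not called, at 0.27 (adjusted p = 0.292) in WT and 0.51 (adjusted p = 0.209) in TTPΔARE. Without replicate 4 of TTPΔARE MPP3 the TTPΔARE values were 0.29 for Ndufv1, 0.26 for Ndufs1, 0.46 for Ndufa1, 0.52 for Ndufb7 and 0.15 for Ndufc2, with the same calls. Without replicate 1 of Y-WT HSC the WT values were 1.06 for Ndufa4, 0.61 for Ndufv1, 0.48 for Ndufs1, 0.63 for Ndufa1, 0.66 for Ndufb7 and 0.48 for Ndufc2, and all 6 were called. Leaving out some other libraries lowered the number of members called, as given below. The adjusted p of Ndufv1, Ndufa1 and Ndufb7 in those fits is not given here.

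Of the 4 members of complex II, Sdhb, the iron-sulfur subunit, was called in both genotypes. It was at 166, 153, 118 and 126 CPM in Y-WT HSCs and 206, 226, 189 and 176 CPM in WT MPP3, and at 159.5, 149, 165 and 164 CPM in Y-TTPΔARE HSCs and 262, 202, 212 and 412 CPM in TTPΔARE MPP3. The groups did not overlap in either genotype, and the log2 fold changes were 0.46 ± 0.15 (SE, adjusted p = 0.0456) and 0.64 ± 0.16 (adjusted p = 0.0198). Over the leave-one-out fits its adjusted p reached 0.14 in WT and 0.105 in TTPΔARE. Sdha, which carries the FAD and oxidises succinate, differed by 0.29 in WT (adjusted p = 0.0832) and 0.10 in TTPΔARE (adjusted p = 0.644). The membrane anchors Sdhc (0.28 and 0.35) and Sdhd (0.41 and 0.44) did not pass the test either, with adjusted p of 0.175 and 0.116 for Sdhc and 0.0543 and 0.0919 for Sdhd. With replicate 4 of TTPΔARE MPP3 left out, Sdha, Sdhb, Sdhc and Sdhd were at 0.18, 0.48, 0.20 and 0.28 in TTPΔARE and Sdhb alone was called. With replicate 1 of Y-WT HSC left out they were at 0.43, 0.63, 0.47 and 0.55 in WT and all 4 were called.

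In complex III, Uqcrq, a small subunit, had the largest change. It was at 67.3, 69.96, 52.3 and 53.5 CPM in Y-WT HSCs and 103, 126, 84.8 and 73.8 CPM in WT MPP3, and at 60.9, 58.4, 75.5 and 66.3 CPM in Y-TTPΔARE HSCs and 128, 90.01, 102 and 238 CPM in TTPΔARE MPP3. MPP3 lay above HSC throughout, by 0.63 ± 0.19 (SE, adjusted p = 0.0331) in WT and 0.96 ± 0.22 (adjusted p = 0.0135) in TTPΔARE on the log2 scale. Over the leave-one-out fits its adjusted p reached 0.0891 in WT and 0.0794 in TTPΔARE. Cyc1, the cytochrome c1 that hands electrons to cytochrome c, was called in both genotypes (0.50, adjusted p = 0.0333, and 0.51, adjusted p = 0.0347). Uqcrc1, a core subunit, was called in WT (0.40, adjusted p = 0.0418) and was at 0.33 (adjusted p = 0.0831) in TTPΔARE. Uqcrfs1, the Rieske iron-sulfur protein, was at 0.39 (adjusted p = 0.0707) and 0.49 (adjusted p = 0.0579). Uqcrq, Cyc1, Uqcrc1 and Uqcrfs1 were, without replicate 4 of TTPΔARE MPP3, at 0.69, 0.38, 0.25 and 0.32 in TTPΔARE, with the same calls. They were, without replicate 1 of Y-WT HSC, at 0.77, 0.69, 0.55 and 0.57 in WT, and all 4 were called. The adjusted p of Cyc1 and Uqcrc1 in the fits whose left-out library lowered the number of calls is not given here.

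In complex IV, Cox5a was called in both genotypes and under every left-out library. It was at 124, 123, 87.3 and 95.3 CPM in Y-WT HSCs and 192, 235, 179 and 170 CPM in WT MPP3, and at 118, 101, 131 and 123 CPM in Y-TTPΔARE HSCs and 229, 182, 214 and 502 CPM in TTPΔARE MPP3. The lowest MPP3 library was above the highest HSC library in each genotype, and the log2 fold changes were 0.81 ± 0.17 (SE, adjusted p = 0.00652) and 1.11 ± 0.23 (adjusted p = 0.00826). Without replicate 4 of TTPΔARE MPP3 the latter was 0.79 (adjusted p = 0.00123). Cox6b2 was at 23.3, 20.6, 19.7 and 23.5 CPM in Y-WT HSCs and 34.1, 31.3, 47.1 and 34.8 CPM in WT MPP3, a log2 fold change of 0.71 ± 0.13 (SE, adjusted p = 0.00381). In TTPΔARE its groups overlapped, since HSC replicate 3 (33.2 CPM) was above the lowest MPP3 library, and the log2 fold change was 0.48 (adjusted p = 0.13). The ubiquitous forms Cox4i1 (0.22 and 0.46 in WT and TTPΔARE), Cox5b (0.41 and 0.62), Cox6a1 (0.46 and 0.64), Cox6b1 (0.32 and 0.63), Cox7a2 (0.44 and 0.68), Cox7b (0.30 and 0.65) and Cox8a (0.45 and 0.62) were positive and not called. In the same order, the 7 were at 0.20, 0.35, 0.31, 0.34, 0.32, 0.37 and 0.25 in TTPΔARE without replicate 4 of MPP3, where Cox6b1 was called (adjusted p = 0.0436). They were at 0.41, 0.55, 0.63, 0.51, 0.59, 0.49 and 0.62 in WT without replicate 1 of Y-WT HSC, where all but Cox7b were called. Without the same libraries Cox5a was at 0.97 in WT, and Cox6b2 at 0.83 in WT and 0.25 in TTPΔARE. For Cox6b2 the fits without other libraries are not given here. Cox7a2l was at -0.01 in WT and 0.14 in TTPΔARE, and 0.16 and -0.16 without these libraries, each a change of sign. Cox4i2 lay below the log2 CPM limit and was lower in WT MPP3 by -1.86 ± 0.40 (SE, adjusted p = 0.00851). Its level there was 0.570 to 0.925 CPM, beside 1.57 to 3.46 CPM in Y-WT HSCs. In TTPΔARE its log2 fold change was -0.96 ± 0.40 (adjusted p = 0.136). Cox6a2, also below that limit, was at 0.17 (adjusted p = 0.94) in WT and 3.61 ± 1.05 (SE, adjusted p = 0.0381) in TTPΔARE.

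In complex V, Atp5o, a subunit of the stalk, had the largest change in WT. It was at 138, 130.2, 97.2 and 107 CPM in Y-WT HSCs and 188, 223, 170 and 155 CPM in WT MPP3, which did not overlap, and it rose by 0.60 ± 0.16 (SE, adjusted p = 0.0251) in WT and 0.80 ± 0.21 (adjusted p = 0.0243) in TTPΔARE. Atp5b rose by 0.50 ± 0.13 (adjusted p = 0.0215) and 0.42 ± 0.11 (adjusted p = 0.0205), whereas Atp5a1, at 0.32 and 0.26, was not called (adjusted p = 0.115 and 0.106). Atp5f1, a peripheral stalk subunit, was called in both genotypes (0.48 and 0.56). Atp5e, the ε subunit, had the largest called change of this complex in TTPΔARE (0.85 ± 0.26, adjusted p = 0.0459), with 78.8, 79.4, 104 and 97.99 CPM in HSCs and 143, 112, 129.7 and 336 CPM in MPP3, and 0.49 without MPP3 replicate 4. The c subunit genes Atp5g1, Atp5g2 and Atp5g3 were at 0.50, 0.44 and 0.38 in WT and at 0.70, 0.55 and 0.68 in TTPΔARE and were not called, with the lowest adjusted p at 0.0534. Leaving out replicate 4 of TTPΔARE MPP3, they were at 0.41, 0.22 and 0.39 in TTPΔARE, and Atp5g1 and Atp5g3 were called (adjusted p = 0.0422 and 0.0395). Without it Atp5o, Atp5b, Atp5a1 and Atp5f1 were at 0.53, 0.36, 0.23 and 0.40, with the same calls. Without replicate 1 of Y-WT HSC, Atp5o, Atp5b, Atp5a1, Atp5f1, Atp5g1, Atp5g2 and Atp5g3 were at 0.77, 0.66, 0.50, 0.64, 0.66, 0.62 and 0.56 in WT, and all 7 were called. The adjusted p of Atp5o, Atp5b and Atp5f1 in the fits whose left-out library lowered the number of calls is not given here.

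The mitochondrial-encoded members outside the stretch were all positive in this comparison, in WT with a median log2 fold change of 0.277 over the 7 and in TTPΔARE with 0.708, which was 0.385 without replicate 4 of MPP3. mt-Nd1 was at 894, 660.2, 652 and 869 CPM in Y-WT HSCs and 1166, 1041, 987 and 1050 CPM in WT MPP3, which did not overlap, with a log2 fold change of 0.42 ± 0.14 (SE, adjusted p = 0.0534). In TTPΔARE it was at 749, 617, 832 and 744 CPM in HSCs and 1241, 840, 1080 and 2217 CPM in MPP3 (0.73 ± 0.21, adjusted p = 0.036). mt-Nd5 rose by 0.67 ± 0.18 (adjusted p = 0.0241) and mt-Nd6 by 0.73 ± 0.20 (adjusted p = 0.0312) in TTPΔARE. These 3 calls held without replicate 4 of MPP3, and each was lost without any of HSC replicates 1 to 4 or MPP3 replicate 1, with adjusted p of 0.0639 to 0.134. mt-Nd2 was at 0.27 and 0.71, mt-Nd4 at 0.22 and 0.72, mt-Co1 at 0.31 and 0.36 and mt-Cytb at 0.26 and 0.47 in WT and TTPΔARE, and none was called. Without replicate 4 of TTPΔARE MPP3, mt-Nd2 was at 0.39, mt-Nd4 at 0.37, mt-Co1 at 0.25 and mt-Cytb at 0.25 in TTPΔARE, and mt-Nd1, mt-Nd5 and mt-Nd6 were at 0.50, 0.55 and 0.50. In WT all 7 were called without replicate 1 of Y-WT HSC, at 0.41 (mt-Nd4) to 0.59 (mt-Nd1). With DESeq2, 2 mitochondrial-encoded members were called in WT and 5 in TTPΔARE, and by edgeR 2 and 7 were higher at an unadjusted p below 0.05. The share of all genes called by DESeq2 is not given here. The 4 members of the stretch that were tested, mt-Co2 (-2.59 and -1.99), mt-Atp8 (-1.87 and -2.48), mt-Atp6 (-2.05 and -1.85) and mt-Co3 (-1.46 and -2.48), had negative log2 fold changes at levels below the log2 CPM limit.

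**Figure D3:**
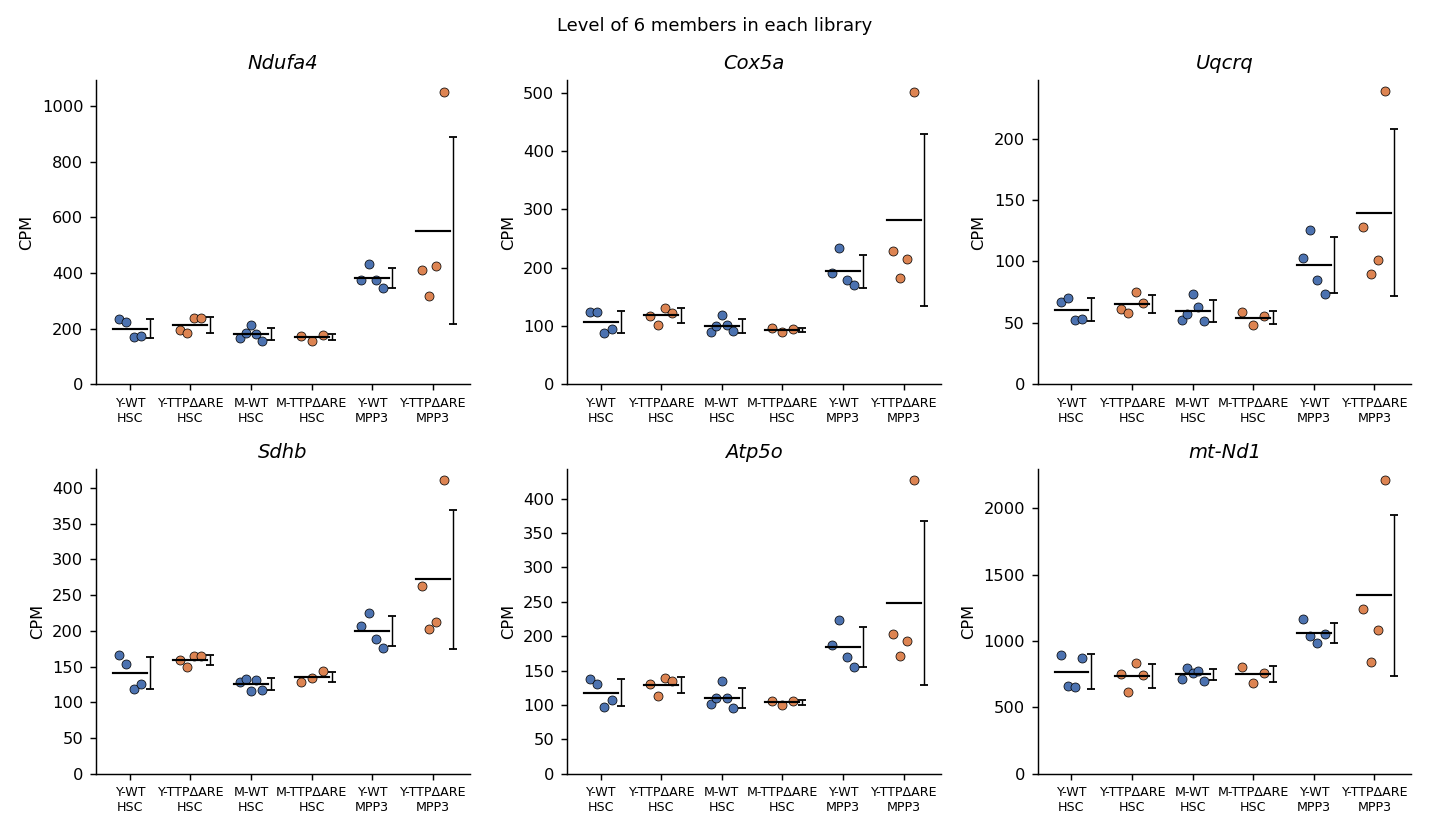
CPM of 6 members in each library of the 6 groups (points, libraries; bars, mean and SD). The members are Ndufa4, Cox5a, Uqcrq, Sdhb, Atp5o and mt-Nd1. MPP3 libraries lie above HSC libraries for Ndufa4 and Cox5a in both genotypes. Replicate 4 of Y-TTPΔARE MPP3 stands at 1050 CPM for Ndufa4 and is the highest of its group in every panel.

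Of the 16 members called in each, 11 were shared (Atp5b, Atp5f1, Atp5o, Cox5a, Cyc1, Ndufa1, Ndufa4, Ndufb7, Ndufv1, Sdhb and Uqcrq), which is 68.8% of each list. Over all genes the shared calls were 43.7% of the WT list and 74.6% of the TTPΔARE list, so that the members lay above the first share and below the second, and the overlap was not tested. Of 96 members tested in both, 85 were positive in both. A test of the difference between the genotypes, the interaction of cell type and genotype, called 0 of 97 members by edgeR, with 0 at an unadjusted p below 0.05, a smallest adjusted p of 0.546 and none called by DESeq2. In that test 0.429% of all genes were called, and 10.7% had an unadjusted p below 0.05.

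**Figure D4:**
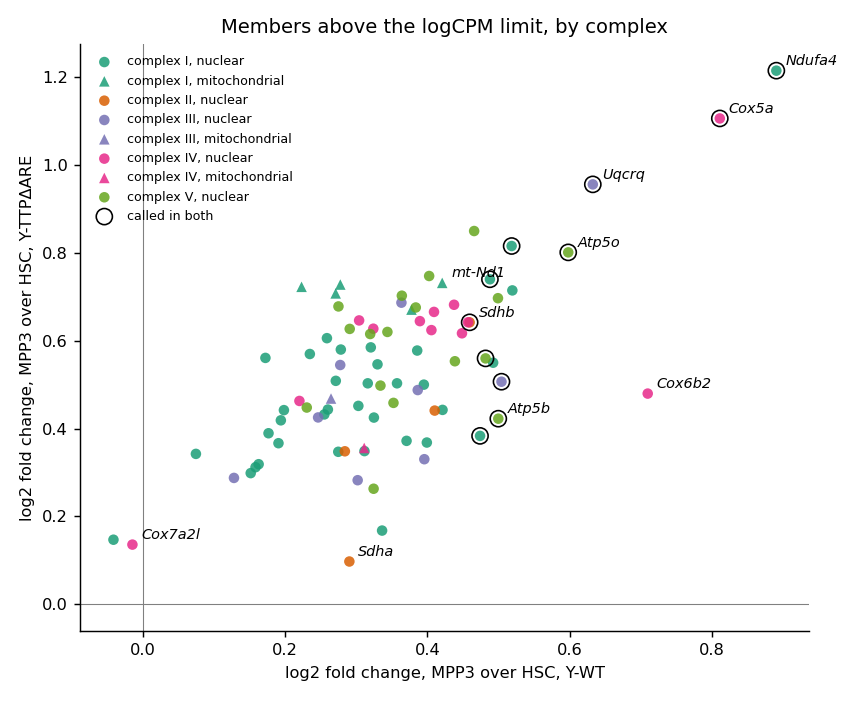
Log2 fold change of MPP3 over HSC in Y-WT (horizontal axis) and Y-TTPΔARE mice (vertical axis) for the members above the log2 CPM limit, coloured by complex, with circles around the 11 members called in both. Nearly all points lie in the upper right, and Ndufa4 is farthest out at 0.89 and 1.22.

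The number of calls depended on single libraries. The share of all genes called in the same fits is not given here, so these numbers do not set the members apart from other genes. In WT it was 72 without replicate 1 of Y-WT HSC, where the median of the 78 nuclear members above the limit was 0.511 in place of 0.335 and all 78 were positive. It was 49, 33, 3 and 6 without WT MPP3 replicates 4, 3, 2 and 1, and 26, 4 and 16 without Y-WT HSC replicates 2, 3 and 4. Replicate 1 of Y-WT HSC also differed in the summed level of olfactory and vomeronasal receptor genes, which was 61.4 CPM there and 597 to 983 CPM in the other 3, and the part of this in the result was not tested. In TTPΔARE the number was 1, 2, 3 and 3 without HSC replicates 1 to 4 and 2, 12, 27 and 20 without MPP3 replicates 1 to 4. In each genotype most of the 16 calls were thus lost without some of these libraries. The values given beside single members mostly leave out replicate 1 of Y-WT HSC or replicate 4 of TTPΔARE MPP3, without which the number rose.

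Promoters are shown for members called higher in MPP3 in both genotypes that hold a motif of a factor known from respiratory chain genes. RefSeq sequences (GRCm38.p6, 250 bases before to 50 after the start) matched 67 of the 89 nuclear members by symbol. Both strands were searched for NRF1 (GCGCANGCG), ETS factors such as GABPA (CCGGAAG), YY1 (AANATGGCG) and ESRRA (TCAAGGTCA), each on its own, so that matches of different motifs may overlap. NRF1 letters were in 29.9% of the matched members and 7.03% of all 27025 genes with an entry, ETS letters in 25.4% and 9.93%, YY1 letters in 14.9% and 2.76%, and ESRRA letters in 2.99% and 0.466%. Any of the 4 was found in 39 of the 67 members (58.2%) and in 17.6% of all genes. Of the 11 members called in both genotypes, 8 had an entry and 4 a match. The 4 are Atp5b with YY1 letters (chr10:128083057-128083356, plus strand, 16 bases after the start), Atp5o with NRF1 letters (chr16:91931581-91931880, minus strand, 10 bases after the start), Ndufb7 with ETS letters (chr8:83566508-83566807, plus strand, 20 bases before the start) and Sdhb with ETS letters (chr4:140961021-140961320, plus strand, 6 bases after the start). Capitals mark the match.
Atp5b: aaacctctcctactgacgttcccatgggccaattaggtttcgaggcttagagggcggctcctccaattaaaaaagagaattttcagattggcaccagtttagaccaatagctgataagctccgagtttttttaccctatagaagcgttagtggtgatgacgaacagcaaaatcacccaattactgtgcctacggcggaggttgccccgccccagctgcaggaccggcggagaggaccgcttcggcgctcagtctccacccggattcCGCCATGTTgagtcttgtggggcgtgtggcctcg
Atp5o: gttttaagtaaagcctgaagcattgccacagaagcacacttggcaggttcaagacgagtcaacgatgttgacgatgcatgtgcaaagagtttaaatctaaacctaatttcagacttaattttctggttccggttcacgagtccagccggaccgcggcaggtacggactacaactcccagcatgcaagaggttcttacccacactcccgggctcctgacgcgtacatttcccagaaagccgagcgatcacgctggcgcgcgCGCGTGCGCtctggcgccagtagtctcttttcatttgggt
Ndufb7: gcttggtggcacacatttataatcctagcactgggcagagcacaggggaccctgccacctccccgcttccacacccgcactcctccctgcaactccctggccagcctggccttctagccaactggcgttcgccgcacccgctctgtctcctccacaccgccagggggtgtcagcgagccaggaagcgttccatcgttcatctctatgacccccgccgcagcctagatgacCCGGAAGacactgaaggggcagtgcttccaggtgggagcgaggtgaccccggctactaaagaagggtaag
Sdhb: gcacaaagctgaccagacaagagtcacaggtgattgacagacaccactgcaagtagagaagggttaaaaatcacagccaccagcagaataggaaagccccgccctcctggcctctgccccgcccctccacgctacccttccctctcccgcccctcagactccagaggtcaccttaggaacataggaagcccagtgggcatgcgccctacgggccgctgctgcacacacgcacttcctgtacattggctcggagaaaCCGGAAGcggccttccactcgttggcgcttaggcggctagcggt
A match of letters describes the sequence and is no evidence of binding.

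Other genes of the pathway were taken from lists. Of 77 mitochondrial ribosomal protein genes tested, 14 (18.2%) were higher in MPP3 and none lower in WT (median log2 fold change 0.287), and 14 and none in TTPΔARE (median 0.420), beside the 24.7% and 14.6% of all genes above the log2 CPM limit that were higher in WT and TTPΔARE. Of 14 enzymes of the TCA cycle, which feeds NADH and succinate to the chain, 8 (57.1%) were higher in WT and 5 (35.7%) in TTPΔARE, and none was lower. Among them Idh2, the mitochondrial NADP-dependent isocitrate dehydrogenase, rose by 0.82 (adjusted p = 0.00118) and 0.73 (adjusted p = 0.00193). Of 43 assembly factors, 5 (11.6%) were higher in WT (Ndufaf2, Ndufaf4, Foxred1, Cox10 and Cox15) and 2 (4.65%) in TTPΔARE (Cox10 and Cox18). Of 22 regulators of mitochondrial transcription and biogenesis, 6 (27.3%) were higher and 1 lower in WT, and 1 (4.55%) was higher and 1 lower in TTPΔARE. Those higher in WT included Pprc1, a coactivator of the PGC-1 family (0.83, adjusted p = 3.64e-04), Nrf1 (0.57) and Polrmt, the mitochondrial RNA polymerase (0.51). Ppargc1a, the coactivator PGC-1α, was lower in both genotypes, by -0.59 (adjusted p = 0.0359) in WT and -0.67 (adjusted p = 0.0232) in TTPΔARE, where Ssbp1, which binds single-stranded mitochondrial DNA, was higher by 0.51. Neither mitochondrial rRNA was called.

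The comparisons of TTPΔARE with WT ask whether raised TTP goes with a change in the members. No member passed the test in young HSCs, middle-aged HSCs or young MPP3, by edgeR or by DESeq2. Among all genes 0.0123% were called higher and 0.0123% lower in young HSCs, 0.7% and 0.71% in middle-aged HSCs, and 1.58% and 0.137% in MPP3. At an unadjusted p below 0.05, edgeR gave 2 of 95, 6 of 92 and 4 of 93 members, beside 7.38%, 16% and 12.1% of all genes. The smallest adjusted p among members was 0.5 in young HSCs (Ndufa6, 0.30 ± 0.11, SE), 0.189 in middle-aged HSCs (mt-Nd5, -0.16 ± 0.05) and 0.383 in MPP3 (Ndufa13, 0.46 ± 0.20), these 3 being named after their values were seen.

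In young HSCs the median log2 fold change was 0.087 over nuclear members, with 73 of 84 positive, and -0.094 over the 7 mitochondrial-encoded members outside the stretch, beside 0.0293 over all genes above the log2 CPM limit. Without replicate 1 of Y-WT HSC the nuclear median was 0.25. The median of the 7 without that library is not given here, and the sign of -0.094 may rest on it. In MPP3 against HSC in WT, leaving it out moved mt-Cytb from 0.264 to 0.436. In middle-aged HSCs the medians were -0.062 over nuclear members, with 25 of 83 positive, and -0.116 over the 7, beside -0.0307 over all genes. The summed levels of the 8 HSC markers (2305 to 2648 CPM in M-WT and 2777 to 2892 CPM in M-TTPΔARE) and of the 8 MPP3 markers (390.5 to 474.5 CPM and 293.3 to 297.4 CPM) differed without overlap between these groups, and their part in the result was not tested. In MPP3 the medians were 0.363, with 80 of 83 positive, and 0.264, beside -0.0024, and without replicate 4 of Y-TTPΔARE MPP3 they were 0.061 and 0.057. In addition to the macrophage markers, the summed level of 5 T cell markers differed without overlap between these groups, at 30.4 to 38.6 CPM in WT and 57.8 to 73.6 CPM in TTPΔARE MPP3, as did that of 5 erythroid markers, at 4.45 to 9.66 CPM and 14.4 to 61.2 CPM, and the part of these markers in the result was not tested. Groups that do not overlap were rarer among members than among all genes tested, with 1 of 95 members (1.05%) beside 6.01% of genes in young HSCs, 4 of 92 (4.35%) beside 11.6% in middle-aged HSCs and 1 of 93 (1.08%) beside 9.96% in MPP3. Cox6b2 was the one in young HSCs, with 23.3, 20.6, 19.7 and 23.5 CPM in WT and 23.7, 23.7, 33.2 and 28.5 CPM in TTPΔARE, and its adjusted p was 0.623. Sdha was the one in MPP3, with 542, 603, 548 and 554 CPM in WT and 526, 482, 527 and 497 CPM in TTPΔARE, a log2 fold change of -0.18 ± 0.12 (SE, adjusted p = 0.587). The difference for Sdha was thus opposite in sign to that of most members of this comparison. In middle-aged HSCs Uqcrc2, Ndufa6 and Cox7a2l were among the members whose TTPΔARE libraries all lay above the WT libraries, and none was called. In the genotype comparisons none of the assembly factors, regulators, mitochondrial ribosomal proteins, mitochondrial rRNAs and TCA cycle enzymes was called either.

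Nuclear members were shifted together in replicate 4 of Y-TTPΔARE MPP3. Relative to the geometric mean of the other 3 libraries of its group, on the scale of CPM + 0.5, 76 of 78 nuclear members above the log2 CPM limit were higher there, with a median log2 difference of 1.19, and 56 were at least 2-fold higher. Among all 13225 genes above the limit 64.2% were higher, the median was 0.231 and 10.1% were at least 2-fold higher. The 7 mitochondrial-encoded members had a median of 1.07. The medians of complexes I to V were 1.2, 0.826, 1.13, 1.25 and 1.2. Among the largest differences were Atp5mpl at 2.82-fold, Ndufs6 and Ndufa4 at 2.74-fold and Cox8a at 2.67-fold, while Atp5b was at 1.45-fold, Atp5a1 at 1.35-fold, Sdha at 0.972-fold and Ndufs1 at 0.955-fold. The difference was larger in genes with a shorter annotated exonic length, which can differ from the length of the mRNA. The Spearman correlation between the log2 difference and that length was -0.51 across 76 nuclear members and -0.41 across 13127 genes, which share this 1 library and are not independent. In the comparison of the genotypes in MPP3, the same correlation across nuclear members was -0.486 with and -0.244 without this library. The part of mRNA length in the result was not tested.

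**Figure D5:**
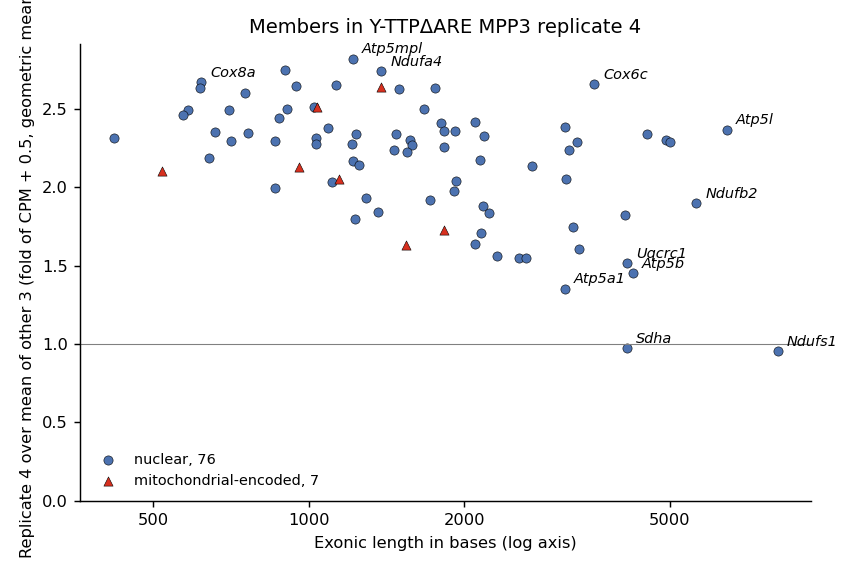
Level of each member in Y-TTPΔARE MPP3 replicate 4 relative to the geometric mean of replicates 1 to 3 (fold, CPM + 0.5) against exonic length in bases on a log axis, for nuclear and mitochondrial-encoded members. Ndufs1 and Sdha lie near 1, while Ndufs6 and Ndufa4 lie at 2.74.

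The comparison of middle-aged with young HSCs asks how the members differ with age. In WT, no member was called by edgeR or DESeq2, while 8.38% of all genes were called higher and 3.69% lower by edgeR. At an unadjusted p below 0.05, edgeR gave 3 members higher (3.19%) and 5 lower (5.32%), beside 16.4% and 21.3% of all genes tested. The median log2 fold change was -0.031 over nuclear members and 0.087 over the 7 mitochondrial-encoded members outside the stretch, beside 0.0639 over all genes above the limit. With the stretch, the 11 mitochondrial-encoded members tested had a median of the opposite sign, -0.040. These WT medians include replicate 1 of Y-WT HSC, and values without it are not given here. Leaving it out moved the nuclear median of MPP3 against HSC in WT from 0.335 to 0.511. The small medians and signs for age in WT may thus rest on this library. In TTPΔARE, 4 nuclear members and mt-Co3 were lower and none was higher, while 4.98% of all genes were higher and 3.24% lower. DESeq2 called none higher, and edgeR gave 1 member higher at an unadjusted p below 0.05 (1.06%, beside 12.1% of all genes tested). Among genes above the log2 CPM limit, 5.59% were lower and 5 of 86 members (5.81%), a share near the background. At an unadjusted p below 0.05, 31 of 94 members (33%) were lower by edgeR, beside 9.33% of all genes tested, and above the limit 32.6% of members and 13.1% of genes. The nuclear median was -0.170, with 76 of 83 negative, beside 0.0294 over all genes above the limit. That of the 7 mitochondrial-encoded members was 0.067, and -0.035 over the 11 tested. In 22 of 83 nuclear members (26.5%) every M-TTPΔARE library lay below every Y-TTPΔARE library, beside 9.51% of all genes tested. All 22 lay above the log2 CPM limit, where the shares were 28.2% of nuclear members and 12.9% of all genes.

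Markers of other cell types moved with age in the same libraries. The summed level of 5 macrophage markers was 88 to 128.5 CPM in Y-TTPΔARE and 17.3 to 21.2 CPM in M-TTPΔARE HSCs, and 53.4 to 219.1 CPM in Y-WT and 19.4 to 33.1 CPM in M-WT HSCs. That of 5 T cell markers was 45.5 to 116.4 CPM in Y-TTPΔARE and 15.7 to 26.7 CPM in M-TTPΔARE HSCs, and 25.8 to 49.3 CPM and 10.7 to 16.5 CPM in WT. That of 5 endothelial markers was higher with age, at 255.5 to 287 CPM and 396.7 to 526.3 CPM in TTPΔARE and 232.1 to 400.2 CPM and 490 to 579.7 CPM in WT. The 8 HSC markers were at 2066 to 2202 CPM in Y-TTPΔARE and 2777 to 2892 CPM in M-TTPΔARE HSCs, and at 1744 to 2167 CPM and 2305 to 2648 CPM in WT. The 8 MPP3 markers were lower with age in TTPΔARE HSCs, at 352.2 to 451.5 CPM and 293.3 to 297.4 CPM, and overlapped in WT, at 386.8 to 530.2 CPM and 390.5 to 474.5 CPM. B cell and erythroid markers overlapped between the ages in both genotypes, no marker of these lists was at 0 in any group, and the part of these markers in the result was not tested.

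Cox6b2 had the largest change among the nuclear members called, with 23.7, 23.7, 33.2 and 28.5 CPM in Y-TTPΔARE HSCs and 19.3, 16.1 and 18 CPM in M-TTPΔARE HSCs. The groups did not overlap, and the log2 fold change was -0.61 ± 0.13 (SE, adjusted p = 0.0152 by edgeR), while in WT it was -0.02 ± 0.12 (adjusted p = 0.91) with overlapping groups. Without M-TTPΔARE replicate 2 its adjusted p was 0.0896. Ndufa1, which is needed to assemble complex I, was at 60.6, 59.8, 75.6 and 70.5 CPM in young and 54.2, 50.4 and 53.05 CPM in middle-aged TTPΔARE HSCs (-0.34 ± 0.09, adjusted p = 0.036). Cox5a (-0.34 ± 0.09, adjusted p = 0.0436) and Atp5o (-0.31 ± 0.09, adjusted p = 0.0459) were the others, and over the leave-one-out fits the adjusted p of Ndufa1, Cox5a and Atp5o reached 0.198, 0.235 and 0.25. Of complex II, Sdha was at 0.07, Sdhb at -0.24, Sdhc at -0.14 and Sdhd at -0.18, and none was called. The number of members called lower was 2, 1 and 2 without M-TTPΔARE replicates 1, 2 and 3, 2, 12, 1 and 1 without Y-TTPΔARE replicates 1 to 4, and 0 in a fit of all 24 libraries.

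mt-Co3 was at 3.84, 2.96, 5.67 and 4.92 CPM in Y-TTPΔARE HSCs and 0.440, 0.483 and 0.444 CPM in M-TTPΔARE HSCs, a log2 fold change of -3.24 ± 0.30 (SE, adjusted p = 1.47e-04), and it was called. Its average level passed the log2 CPM limit in this comparison, and did not without any 1 of the 4 young libraries. In WT it was at 2.75, 3.20, 2.71 and 3.34 CPM in young and 0.427, 0.809, 0.421, 0.394 and 0.573 CPM in middle-aged HSCs (-2.51), below that limit. mt-Atp6, mt-Co2 and mt-Atp8 had negative log2 fold changes as well, of -3.56, -3.13 and -3.31 in WT and -3.28, -3.51 and -2.42 in TTPΔARE. All 4 lie in the stretch copied on chromosome 1, at levels of a few CPM or less, and the summed level of the copies was lower in middle-aged HSCs too. The 7 members outside the stretch did not follow them. mt-Nd1 was at -0.04 and 0.03 in WT and TTPΔARE, mt-Nd2 at -0.10 and -0.14, mt-Nd4 at 0.11 and 0.08, mt-Nd5 at 0.09 and 0.07, mt-Nd6 at 0.02 and -0.04, mt-Co1 at 0.28 and 0.27 and mt-Cytb at 0.19 and 0.15, and none was called.

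Of the other genes of the pathway, 5 of 77 mitochondrial ribosomal proteins were lower with age in TTPΔARE HSCs (6.49%, median -0.141), beside 5.59% of all genes above the log2 CPM limit, and 1 in WT (1.3%, median -0.025), beside 6.03%. Ndufaf4, an assembly factor of complex I, was lower in TTPΔARE by -0.52 (adjusted p = 0.0105), and mt-Rnr2, the large mitochondrial rRNA, was higher by 0.53 (adjusted p = 0.00512). Ndufab1, the mitochondrial acyl carrier protein, which is bound to complex I, was lower by -0.30 (adjusted p = 0.0212) and Ndufb1-ps by -0.42 (adjusted p = 0.0465). Coa5 in WT was the only assembly factor that was higher, Polrmt and Pprc1 were higher in WT, Mterf1a was lower in TTPΔARE, and Ogdh was the only enzyme of the TCA cycle called, higher in WT. The interaction of age and genotype called 0 of 98 members by edgeR, with 4 at an unadjusted p below 0.05 and none by DESeq2, so that no member passed the test for an effect of age that differed between the genotypes. In that test 0.0213% of all genes were called and 15% had an unadjusted p below 0.05. The smallest adjusted p among members was 0.24, for Cox6b2 (-0.65 ± 0.19, SE).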

How the data were processed

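Raw counts per gene were deposited for 24 bulk mRNA-seq libraries, and the authors made them with cutadapt, STAR and featureCounts on mm10 (submitters' notes, no versions). How multimapping reads and strand were handled is not given in the sources used here. The labels and the study's methods name different library kits. The study's own MPP3 analysis used fewer TTPΔARE libraries than the 4 used here. Counts were tested with edgeR 4.0.16 (TMM, filterByExpr set to min.count 10 and min.total.count 15, quasi-likelihood F test, Benjamini-Hochberg over all genes passing the filter), each comparison on its own groups, in R 4.3.3. Calls required an adjusted p under 0.05, more than 1.2-fold change (except for interactions) and an average log2 CPM over 1.5, which are the study's limits. Standard errors are the log2 fold change over the square root of F. CPM values use the TMM factors of the 24 libraries. The script was tested on simulated data. No 2 replicates held the same counts. Depth was 24261371 to 39934554 counts, and counting error is small beside the spread of replicates at the levels named, except for the members near 0.

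Symbols alone set the members, but the choice of members and lists was made with earlier results of these data known. Named were all mitochondrial-encoded and complex II members, the catalytic core, members with paralogues, the highest per kilobase in each complex, and per comparison, complex and direction the called member with the largest change whose groups do not overlap. The values of 1 member, which is included in the counts, are not reported here. Gene positions and lengths came from GENCODE M21 (GRCm38), another release than the study's, and 2 members (Atp5md and Atp5o) had no single match. Nuclear copies were compared with BLAST+ 2.17.0. Replicate numbers from the titles were checked for pairing by correlating the deviations of same-numbered libraries. Only in MPP3 against HSC in TTPΔARE did every pair exceed 0.1 (r = 0.214 to 0.298), and there the blocked counts are given beside the result. Alternatives were RLE size factors, DESeq2 1.42.0, no filter on low counts, the adjusted p alone, mitochondrial genes left out of library sizes, a replicate block, 1 fit of all 24 libraries and each library left out.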

Additional observations from a re-analysis of the deposited data

Results flagged for a closer look

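Among 115 groups of 4 or 5 values, 15 held a library whose gap to the nearest other was large for the range of its group by Dixon's criterion, where chance gives about 1 in 20. Most lay in 2 MPP3 libraries. In replicate 4 of Y-TTPΔARE MPP3, complex I took 0.644% of counts (0.351% to 0.399% in the other replicates) and complex IV 0.41% (0.193% to 0.228%). In the same library Atp5o was at 426 CPM (171 to 203 in the others), Cox5a at 502 CPM (181 to 229), Ndufa4 at 1050 CPM (319 to 427), Atp5e at 336 CPM (111 to 143) and Cox6b2 at 67.7 CPM (31.6 to 35.4). In replicate 2 of Y-WT MPP3, nuclear members took 1.54% of counts (1.24% to 1.25% in the others), with 0.425% for complex I, 0.166% for complex III, 0.242% for complex IV and 0.591% for complex V. The ratio of mitochondrial-encoded to nuclear counts was 0.525 in replicate 1 of Y-TTPΔARE MPP3 and 0.459 to 0.469 in the others. In HSCs, mt-Nd4 was at 302 CPM in replicate 2 of Y-TTPΔARE (369 to 372 in the others) and Atp5e at 103 CPM in replicate 3 of M-WT (79.6 to 86.2).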

How the results depend on the processing

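The genotype comparisons and both interactions called no member under any alternative. The share of all genes called under each alternative is not given here, so the counts below do not set the members apart from other genes. In MPP3 against HSC in WT, the 16 members called higher became 25 with RLE size factors, 38 with DESeq2 and 31 with the replicate block, and 3 to 72 with 1 library left out, while the nuclear median ranged from 0.26 to 0.50. In TTPΔARE the 16 became 46 with DESeq2, 27 with the replicate block, 73 with all 24 libraries in 1 fit, and 1 to 27 with 1 library left out, with 0 to 1 called lower. By the adjusted p alone, 4 members in WT and 3 in TTPΔARE were lower. With age in WT, the 0 calls became 1 higher and 4 lower by the adjusted p alone, 2 higher without the filter and 0 to 4 higher with 1 library left out. In TTPΔARE the 5 called lower became 15 with DESeq2, 9 with mitochondrial genes left out of library sizes, 2 with the replicate block, 0 with all 24 libraries in 1 fit and 1 to 12 with 1 library left out, and 1 was higher without the filter. The nuclear median of the genotypes in young HSCs ranged from 0.054 to 0.25 with 1 library left out. Signs changed for Cox7a2l in WT (0.034 in 1 fit of 24 libraries and -0.087 to 0.16 with 1 left out) and TTPΔARE (-0.16 to 0.25), for Cox7a1 in TTPΔARE (-0.10 with the replicate block and -0.35 to 0.36) and for Cox6a2 in WT (-0.29 to 4.59), both at about 1 CPM or less. The cause was not tested. Apart from these, no sign of a member named for MPP3 against HSC reversed there. Between the genotypes in MPP3, 76 of 78 nuclear members above the limit were positive, and 61 without replicate 4 of Y-TTPΔARE. Other signs near 0 in the genotype and age comparisons may also turn with 1 library. The labels state no shared origin for same-numbered libraries in any comparison, and the block did not lead to calls between genotypes. Chosen after seeing the data, the median of the mitochondrial-encoded members without the 6 of the stretch was -0.094, -0.116 and 0.264 for the genotypes in young HSCs, middle-aged HSCs and MPP3, 0.277 and 0.708 for MPP3 against HSC in WT and TTPΔARE, and 0.087 and 0.067 for age in WT and TTPΔARE. Without replicate 4 of Y-TTPΔARE MPP3 as well, it was 0.057 for the genotypes in MPP3 and 0.385 for MPP3 against HSC in TTPΔARE. For the genotypes in young HSCs and for age in WT, it is not given without replicate 1 of Y-WT HSC.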
